A study of Mus musculus with 12 samples.

Results

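The colony-stimulating factors and their receptors were followed in macrophages grown from mouse bone marrow and in the osteoclasts, cells that resorb bone, which these macrophages form under RANKL. The 8 genes were chosen by symbol: the ligand genes Csf1, Csf2 and Csf3, and the receptor genes Csf1r, Csf2ra, Csf2rb, Csf2rb2 and Csf3r. All 8 were found among the 54532 Ensembl genes of the expression table. RNA sequencing gave 12 libraries in 4 groups of 3, and the values are FPKM, fragments per kilobase of gene scaled per library. All groups were wild-type marrow cells that were expanded for 4 to 5 days with CMG, a source of M-CSF, and then kept for 5 to 6 days in 2% CMG. The untreated macrophages had no RANKL and no LPS. The LPS-treated macrophages had no RANKL and received 100 ng/ml of lipopolysaccharide (LPS, of the bacterial outer membrane) for 3 h on day 5. The untreated osteoclasts had RANKL, given as 100 ng/ml in the sample source and as 50 to 100 ng/ml in the protocol. The LPS-treated osteoclasts had the same RANKL and the same LPS. The M-CSF in the medium was thus common to every group, and no group was grown without it. The labels do not say that replicates came from separate mice or cultures, so p-values measure the spread between these samples, which may be technical.

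M-CSF, the product of Csf1, binds the receptor tyrosine kinase CSF1R and keeps macrophages and osteoclast precursors alive and dividing. GM-CSF, the product of Csf2, binds a receptor made of the GM-CSF-specific chain CSF2RA and a signalling beta chain. In the mouse the common beta chain, encoded by Csf2rb, also serves IL-3 and IL-5, and a close copy encoded by Csf2rb2 serves IL-3. G-CSF, the product of Csf3, binds CSF3R and drives the output of neutrophils. LPS is a well-known inducer of the 3 ligands in innate immune cells. M-CSF with RANKL is the standard condition for osteoclast formation in culture.

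The ligand messages are known for AU-rich elements in the 3′ untranslated region, which are bound by decay factors, so the densest stretch of 30 bases is shown for each. Capitals mark the pentamer ATTTA, and the sequences were read 5′ to 3′ on the gene's strand from GENCODE M21 transcripts on GRCm38. Csf1 lies on the minus strand at chr3:107741109-107741138, Csf2 on the minus strand at chr11:54247329-54247358 and Csf3 on the plus strand at chr11:98702992-98703021.
Csf1: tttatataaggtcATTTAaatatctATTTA
Csf2: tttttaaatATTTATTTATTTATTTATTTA
Csf3: ATTTAtctctATTTAatATTTAtgcatatt
Overlapping matches were counted on the transcript strand. The 3′ untranslated region of Csf2 held 9 pentamers in 317 bases, or 28.4 per kilobase, and 0.0921% of the 20636 genes with such a region had that density or more. Csf3 held 6 in 669 bases (8.97 per kilobase, with 1.79% of genes at or above), and Csf1 held 4 in 2111 bases (1.89 per kilobase, with 36.5% of genes at or above). The median gene had 1.12 per kilobase. The nonamer TTATTTATT, which contains the pentamer, was found 4 times in Csf2 and in no other of the 8 genes, while 6.91% of all genes held it. Csf2ra, Csf2rb, Csf2rb2 and Csf3r held no pentamer. These are matches of letters and not measured decay.

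The beta chain genes are near copies, which bears on their counts. Their coding sequences had 2688 bases (Csf2rb) and 2634 bases (Csf2rb2), and 2503 of 2628 aligned bases were identical (95.2%). The 60 bases in which they differ most are shown with the 13 differing bases in capitals, from GENCODE M21 transcripts on GRCm38. Csf2rb is on the plus strand at chr15:78338893-78338952 and Csf2rb2 on the minus strand at chr15:78294379-78294438.
Csf2rb: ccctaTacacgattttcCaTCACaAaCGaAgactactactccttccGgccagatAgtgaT
Csf2rb2: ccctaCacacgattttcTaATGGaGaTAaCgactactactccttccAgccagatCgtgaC
The longest identical run was 242 bases. Of all distinct stretches of 150 bases in the annotated transcripts, 2.30% of those of Csf2rb and 3.34% of those of Csf2rb2 occur in the other gene. At 50 bases these shares were 12.3% and 18.4%. How reads that match both genes were counted is not given in the sources used here, so part of the signal of each could belong to the other.

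RefSeq promoter windows on GRCm38.p6, from 250 bases before to 50 after the start, were matched for 5 of the 8 genes (Csf1, Csf2, Csf2ra, Csf2rb2 and Csf3r). They were searched on both strands for a kB-like motif (GGNNTTTCC, in 5.83% of 32817 windows), an AP-1 motif (TGANTCA, in 7.81%) and the CK-1 core of cytokine promoters (GAGATTCC, in 0.905%). Csf1 is shown because it was the member called higher with LPS in both cell types. The stretch runs from 200 to 101 bases before the RefSeq start, on the minus strand at chr3:107760570-107760669, with the kB-like match, which lies on the opposite strand, in capitals.
Csf1: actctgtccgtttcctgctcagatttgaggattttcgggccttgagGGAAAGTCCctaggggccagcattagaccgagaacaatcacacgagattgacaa
The window of Csf2 held 1 kB-like match, 24 bases after a RefSeq start that lies 232 bases upstream of the GENCODE start. The windows of Csf2ra, Csf2rb2 and Csf3r held no match to the 3 motifs. A match is a description of the letters and not a bound site.

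Reads recovered from the FPKM steps came to 15651755 to 20281431 assigned reads per library, and 9728 to 10301 genes per library reached 1 FPKM. The columns summed to 255852 to 408994 FPKM, and the values are scaled to the typical gene rather than to the read total. The median log2 difference over all genes tested was 0.02 for LPS in macrophages and 0.01 for LPS in osteoclasts. Rescaling the columns to TPM moved that median to -0.55 for LPS in macrophages, to -0.38 for untreated osteoclasts against untreated macrophages and to 0.51 for the interaction. The share of called genes that were higher with LPS in macrophages was then 18.5% in place of 52.6%, and 37.0% under quantile normalization. In osteoclasts with LPS it was 62.8% as deposited, 43.5% as TPM and 38.5% under quantile normalization. Between untreated cell types it was 49.9% as deposited and 29.9% as TPM, and for the interaction 47.0%, 82.0% as TPM and 59.9% under quantile normalization. Differences of the deposited values are thus relative to the typical gene, while TPM and quantile values are given as fitted unless the median is said to be taken off.

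The cell labels held against their markers. All 10 osteoclast markers had a mean of at least 1 FPKM in both osteoclast groups, where Ctsk, the collagen-cleaving protease of the osteoclast, stood at 15541 FPKM untreated, against 1.43 FPKM in untreated macrophages. That level was also reached by 5 of the 10 in untreated and 4 in LPS-treated macrophages. The osteoclast markers summed to 16.3 to 20.5 FPKM in untreated macrophages and 29794 to 31237 FPKM in untreated osteoclasts. All 8 macrophage markers had at least 1 FPKM in both macrophage groups, and 6 of 8 did in each osteoclast group. Cd68, a lysosomal protein of both cell types, stood at 670 FPKM in untreated macrophages and 1402 FPKM in untreated osteoclasts. The means of the other 7 macrophage markers were lower in untreated osteoclasts, such as Adgre1, which encodes F4/80, with 428 against 33.1 FPKM. In bulk RNA, fewer cells of a type and less RNA per cell cannot be told apart.

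Csf1 had the widest range of group means, as a ratio, among the members read in every group. It is encoded on the minus strand of chromosome 3 (107741048 to 107760469, GRCm38, ENSMUSG00000014599). Untreated macrophages held 7.22, 5.61 and 4.52 FPKM, LPS-treated macrophages 67.3, 69.0 and 69.1 FPKM. Untreated osteoclasts held 0.123, 0.359 and 0.189 FPKM, from 12, 32 and 17 reads, and LPS-treated osteoclasts 4.83, 5.79 and 5.61 FPKM. LPS-treated macrophages were thus the highest group and untreated osteoclasts the lowest, while untreated macrophages and LPS-treated osteoclasts overlapped between them.

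On the ratio of means, Csf1 was 11.8-fold higher with LPS in macrophages and 24.2-fold higher with LPS in osteoclasts. On the log2(FPKM + 1) scale the rise was 3.38 ± 0.12 (SE; limma adjusted p = 1.60e-10) in macrophages and 2.39 ± 0.12 (limma adjusted p = 6.14e-08) in osteoclasts. Untreated osteoclasts were 25.9-fold below untreated macrophages, a log2 difference of -2.46 (limma adjusted p = 1.97e-09). With LPS in both they were 12.7-fold below, a log2 difference of -3.44 (limma adjusted p = 6.19e-11). These 4 directions and calls held under each alternative that was run.

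Which cell type had the larger Csf1 response depended on the scale. The interaction, the log2 difference with LPS in osteoclasts minus that in macrophages, was -0.99 (limma adjusted p = 4.11e-04) on log2(FPKM + 1). With a pseudocount of 0.1 it was 0.58 and not called, on TPM 0.40 and not called (-0.11 less the median of all genes), and in limma's voom on recovered reads 1.11 (limma adjusted p = 0.0496). Under quantile normalization it kept its direction and call, at -0.71 (limma adjusted p = 0.00802). The gain in FPKM was larger in macrophages, where the mean went from 5.78 ± 1.36 to 68.5 ± 0.982 (SD, n = 3), than in osteoclasts, where it went from 0.224 ± 0.121 to 5.41 ± 0.510 (SD, n = 3). The ratio was larger in osteoclasts. Stromal and endothelial markers, among them collagen genes of M-CSF-producing stromal cells, summed to 26.8 to 36.8 FPKM in untreated and 31.1 to 37.9 FPKM in LPS-treated macrophages. They summed to 0.328 to 0.455 FPKM in untreated and 0.478 to 1.01 FPKM in LPS-treated osteoclasts. Their summed level overlapped between macrophages with and without LPS, and the part of these markers in the difference between cell types was not tested.

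**Figure D1:**
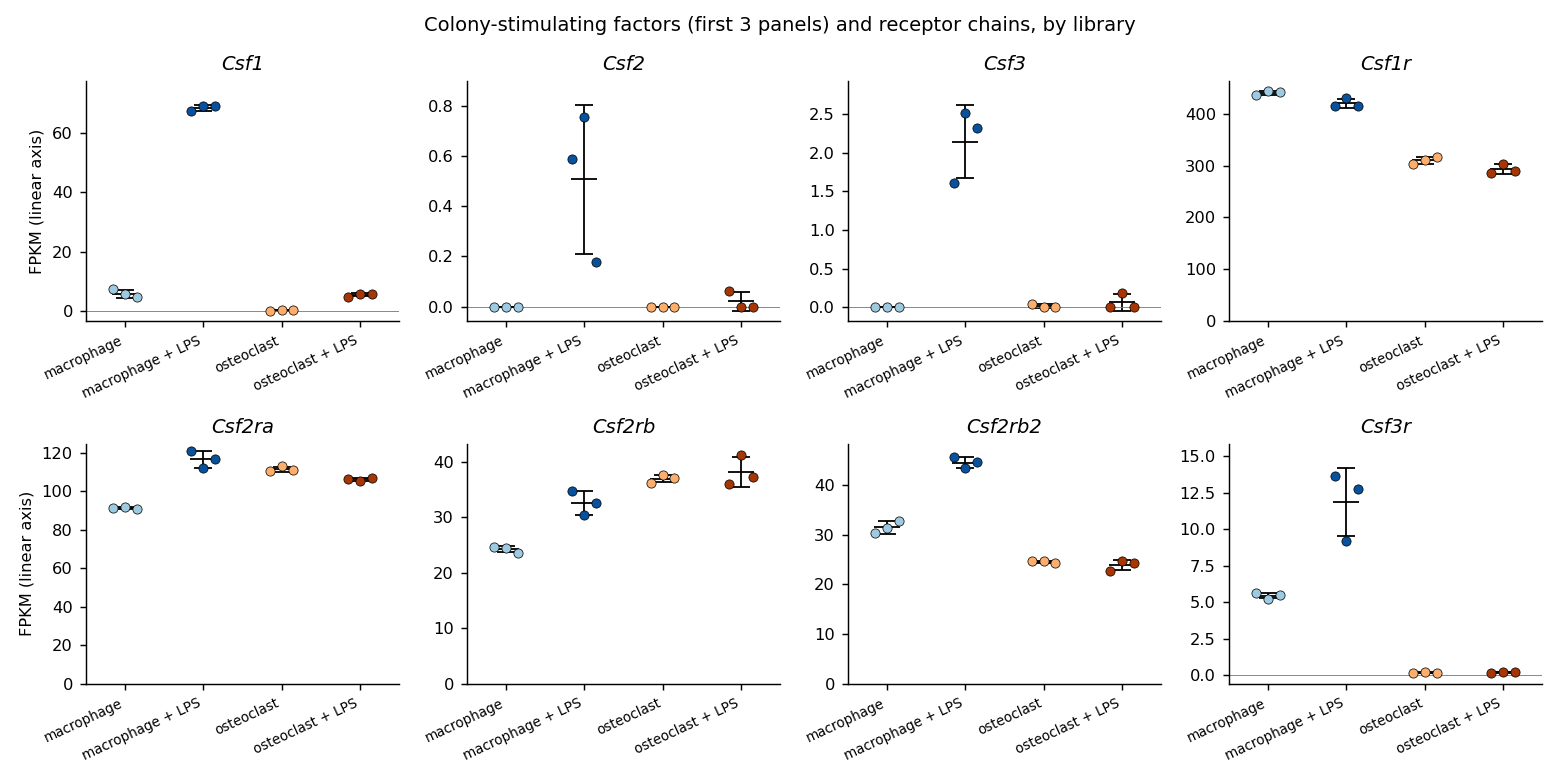
FPKM of the 8 genes in each of the 12 libraries (points), with the group mean and SD (bars, n = 3), on linear axes that differ by gene. Csf1 and Csf3r are highest in LPS-treated macrophages, Csf2 and Csf3 are near 0 outside them, and Csf1r lies between 286 and 444 FPKM in every library.

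Csf3 was found almost only in macrophages given LPS. The gene lies on the plus strand of chromosome 11 (98701263 to 98703629, GRCm38, ENSMUSG00000038067). The LPS-treated macrophages held 1.61, 2.51 and 2.32 FPKM, from 128 reads in all, and the untreated macrophages held no read. Untreated osteoclasts held 0.0383, 0 and 0 FPKM, from 1 read, and LPS-treated osteoclasts 0, 0.184 and 0 FPKM, from 4 reads in 1 library. The level in LPS-treated macrophages was at least 23.2-fold higher than the floor of 3 reads per library in untreated macrophages. With LPS in both, the osteoclast level was 41.0-fold lower by reads (95% counting interval 15.6 to 153, for counting error only).

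Csf3 passed the expression filter (at least 1 FPKM in at least 3 libraries) through the LPS-treated macrophages alone, so that its tests describe the group that let it in. They gave a log2 difference of 1.64 ± 0.11 (SE; limma adjusted p = 5.38e-08) with LPS in macrophages and 0.06 (95% interval, here and below not adjusted, -0.18 to 0.31; limma adjusted p = 0.753) in osteoclasts. The reads of osteoclasts with and without LPS gave a ratio of 3.92 with a 95% counting interval of 0.388 to 193. That interval holds 1, so these few reads do not give the direction or size of a change.

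Csf2 was the lowest member. The gene lies on the minus strand of chromosome 11 (54247271 to 54249667, GRCm38, ENSMUSG00000018916), and 96 of its exon bases overlap an antisense gene, Gm12223, whose reads cannot be told apart without strand. LPS-treated macrophages held 0.588, 0.754 and 0.178 FPKM, from 6, 9 and 2 reads. LPS-treated osteoclasts held 1 read in 1 library, and the 6 untreated libraries held none. Csf2 did not pass the filter and was not tested in the main analysis. Its level in LPS-treated macrophages was at least 3.10-fold above the floor of 3 reads per library in untreated ones, and LPS-treated osteoclasts were 21.8-fold below LPS-treated macrophages by reads (95% counting interval 3.41 to 910). Fitted with no filter, an addition made after seeing the data, the LPS difference in macrophages was 0.57 on the log2(FPKM + 1) scale (limma adjusted p = 0.00222).

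Csf1r, the M-CSF receptor, was the most abundant member per length in all 12 libraries. It lies on the plus strand of chromosome 18 (61100598 to 61132149, GRCm38, ENSMUSG00000024621). Its exons overlap those of Hmgxb3 on the opposite strand over 873 bases, and the deposited values use a length of 4885 bases where the merged exons of GENCODE M21 have 5774. Untreated macrophages held 436, 444 and 442 FPKM, LPS-treated macrophages 415, 430.4 and 416 FPKM. Untreated osteoclasts held 303, 311 and 316 FPKM, and LPS-treated osteoclasts 286, 304 and 289 FPKM. Every macrophage library stood above every osteoclast library, and the libraries of osteoclasts with and without LPS overlapped.

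Untreated osteoclasts had 1.42-fold less Csf1r than untreated macrophages, a log2 difference of -0.51 ± 0.04 (SE; limma adjusted p = 5.33e-08). With LPS in both the log2 difference was -0.52 (limma adjusted p = 3.11e-08). The lower level in osteoclasts kept its direction and call in each alternative, with values of -0.92 (TPM) and -0.96 (quantile) between untreated cells and -0.36 and -0.18 between LPS-treated cells. LPS gave a log2 difference of -0.07 (95% interval -0.15 to 0.01; limma adjusted p = 0.106) in macrophages and -0.08 (-0.16 to 0.00; limma adjusted p = 0.136) in osteoclasts. As TPM and under quantile normalization the LPS difference in macrophages was called, at -0.72 and -0.99, and so was that in osteoclasts, at -0.15 and -0.22. Less the median of all genes, the TPM value in macrophages was -0.16 and the quantile value -0.85.

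Csf2ra, the GM-CSF-specific alpha chain, lay between 90.5 and 121 FPKM in the 12 libraries. It lies on the minus strand of chromosome 19 (61223957 to 61228429, GRCm38, ENSMUSG00000059326), and the values use a length of 1849 bases where GENCODE M21 has 2871. Untreated macrophages held 91.4, 91.5 and 90.5 FPKM, LPS-treated macrophages 121, 112 and 116 FPKM. Untreated osteoclasts held 110.5, 113 and 111 FPKM, and LPS-treated osteoclasts 107, 105 and 107 FPKM. The untreated macrophages were the lowest group, and the LPS-treated macrophages overlapped the untreated osteoclasts.

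The log2 difference of Csf2ra with LPS in macrophages was 0.35 ± 0.03 (SE; limma adjusted p = 1.22e-06), but it turned to -0.29 as TPM and -0.47 under quantile normalization. Less the median of all genes it was 0.33 as deposited, 0.26 as TPM and -0.34 under quantile normalization. In osteoclasts the LPS difference was -0.07 (95% interval -0.14 to 0.00; limma adjusted p = 0.182), with no overlap between the libraries, and it was called as TPM (-0.14) and under quantile normalization (-0.18). Untreated osteoclasts stood 0.29 above untreated macrophages (limma adjusted p = 5.80e-06), and at -0.13 as TPM and -0.06 under quantile normalization. Less the median of all genes these were 0.29, 0.25 and -0.09. With LPS in both, osteoclasts stood at -0.13 against macrophages (limma adjusted p = 0.00245), and at 0.02 as TPM and 0.24 under quantile normalization. Less the median these were -0.12, -0.10 and 0.15.

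The beta chain genes both lie on chromosome 15. Csf2rb runs from 78325752 to 78353847 on the plus strand (GRCm38, ENSMUSG00000071713) and Csf2rb2 from 78282507 to 78305721 on the minus strand (ENSMUSG00000071714). Csf2rb held 24.6, 24.5 and 23.6 FPKM in untreated and 34.8, 30.4 and 32.7 FPKM in LPS-treated macrophages. It held 36.3, 37.7 and 37.1 FPKM in untreated and 36.1, 41.3 and 37.3 FPKM in LPS-treated osteoclasts. Every osteoclast library was above every macrophage library, and LPS-treated and untreated osteoclasts overlapped. Csf2rb2 held 30.2, 31.3 and 32.8 FPKM in untreated and 45.6, 43.3 and 44.7 FPKM in LPS-treated macrophages. It held 24.6, 24.6 and 24.3 FPKM in untreated and 22.7, 24.7 and 24.2 FPKM in LPS-treated osteoclasts. For this copy the order was the opposite, with every osteoclast library below every macrophage library.

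Untreated osteoclasts had more Csf2rb than untreated macrophages, 1.53-fold or 0.59 ± 0.06 on the log2 scale (SE; limma adjusted p = 9.86e-07). With LPS in both the log2 difference was 0.22 (limma adjusted p = 0.00300). Csf2rb2 was lower in osteoclasts, by a log2 difference of -0.35 ± 0.04 untreated (SE; limma adjusted p = 9.02e-06) and -0.87 with LPS (limma adjusted p = 9.93e-10). These opposite directions were kept in every alternative run, TPM and quantile normalization included. With LPS in macrophages the log2 difference was 0.41 for Csf2rb (limma adjusted p = 3.57e-05) and 0.49 for Csf2rb2 (limma adjusted p = 4.98e-07), and these turned to -0.22 and -0.14 as TPM and to -0.09 and -0.07 under quantile normalization. Less the median of all genes, the values of Csf2rb and Csf2rb2 were 0.39 and 0.47 as deposited, 0.34 and 0.41 as TPM and 0.05 and 0.07 under quantile normalization. In osteoclasts it was 0.04 (95% interval -0.08 to 0.17; limma adjusted p = 0.667) for Csf2rb and -0.04 (-0.13 to 0.05; limma adjusted p = 0.589) for Csf2rb2.

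Ratios within a library do not depend on the factor by which the library was scaled, as deposited or as TPM. Csf2rb over Csf2rb2 was 0.815, 0.784 and 0.719 in untreated macrophages and 0.765, 0.702 and 0.732 in LPS-treated ones. In osteoclasts it was 1.47, 1.53 and 1.53 untreated and 1.59, 1.67 and 1.54 with LPS. Per length, Csf2rb2 was thus the higher copy in all 6 macrophage libraries and Csf2rb in all 6 osteoclast libraries. The values use 7277 bases for Csf2rb and 4740 for Csf2rb2, so which copy stood higher depends on these lengths. By reads, Csf2rb was above Csf2rb2 in every library. Summed over 3 libraries they held 12177 and 10270 reads in untreated and 9876 and 8795 in LPS-treated macrophages. The shift of the ratio between cell types does not depend on the lengths. The difference between cell types, 0.773 ± 0.0486 against 1.51 ± 0.0315 untreated (SD, n = 3), had the smallest p that an exact two-sided permutation test of 3 against 3 can give, p = 0.1, so it could not pass 0.05. The alpha chain over Csf2rb was 3.76 ± 0.0678 in untreated macrophages, 3.58 ± 0.110 with LPS, 3.01 ± 0.0312 in untreated osteoclasts and 2.79 ± 0.211 with LPS (SD, n = 3 each). Csf1r over Csf2ra was 4.84 ± 0.0570 in untreated and 3.61 ± 0.208 in LPS-treated macrophages (exact permutation p = 0.1, the smallest possible) and 2.78 ± 0.0598 and 2.76 ± 0.110 in osteoclasts (exact permutation p = 0.7). In the 16 ratio comparisons made, 14 gave the smallest p, and none could pass an adjustment.

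**Figure D2:**
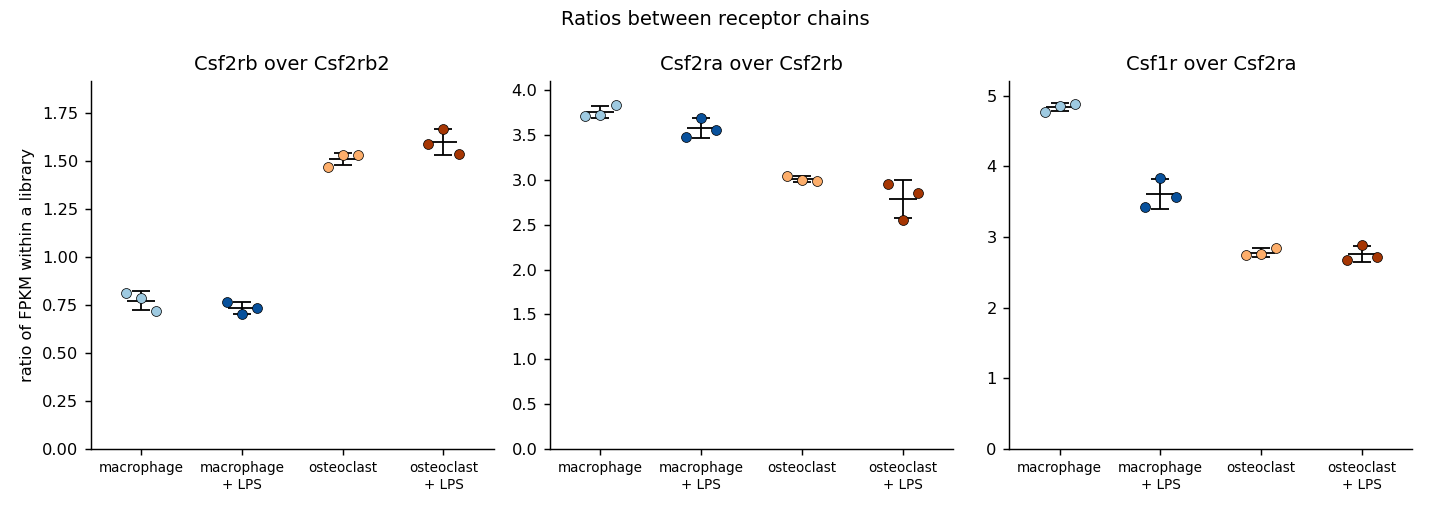
Ratios of FPKM between receptor chains within each library (points), with the group mean and SD (bars, n = 3), on linear axes from 0. Csf2rb over Csf2rb2 is below 1 in all 6 macrophage libraries and above 1 in all 6 osteoclast libraries, and Csf1r over Csf2ra is near 4.84 in untreated macrophages and 2.78 in untreated osteoclasts.

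Csf3r, the G-CSF receptor, was a gene of the macrophage libraries. It lies on the plus strand of chromosome 4 (126024550 to 126044440, GRCm38, ENSMUSG00000028859). Untreated macrophages held 5.61, 5.26 and 5.49 FPKM, and LPS-treated macrophages 13.6, 9.19 and 12.8 FPKM. Untreated osteoclasts held 0.135, 0.197 and 0.179 FPKM, from 32 reads in all, and LPS-treated osteoclasts 0.154, 0.198 and 0.228 FPKM, from 37 reads. The groups of macrophages did not overlap, and both stood above all osteoclast libraries, which overlapped with and without LPS.

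Csf3r rose 2.18-fold with LPS in macrophages, by 0.98 ± 0.11 on the log2(FPKM + 1) scale (SE; limma adjusted p = 5.41e-06), and by 0.44 as TPM (0.96 and 0.99 less the median of all genes). Untreated osteoclasts were 32.0-fold below untreated macrophages, a log2 difference of -2.46 (limma adjusted p = 6.26e-10), and with LPS in both 61.5-fold below, a log2 difference of -3.41 (limma adjusted p = 2.27e-11). Csf3r passed the filter through the macrophages alone, so the tests between cell types describe the groups that let it in. LPS in osteoclasts gave 0.03 (95% interval -0.21 to 0.27; limma adjusted p = 0.893). The interaction was -0.95 (limma adjusted p = 2.13e-04), and it was not called as TPM (-0.40, or -0.91 less the median of all genes; limma adjusted p = 0.0603) or in voom (-0.92; limma adjusted p = 0.232). Granulocytes also carry this receptor. The 9 granulocyte markers summed to 5.70, 6.32 and 8.57 FPKM in untreated and 6.88, 16.4 and 15.4 FPKM in LPS-treated macrophages, and to 0.247 to 0.699 FPKM in untreated and 0.569 to 1.88 FPKM in LPS-treated osteoclasts. In untreated macrophages S100a9 stood at 2.96, S100a8 at 1.96 and Ngp at 1.24 FPKM, and the defining markers Ly6g and Elane were at 0. In LPS-treated macrophages S100a9 stood at 6.285, S100a8 at 3.18 and Ngp at 2.76 FPKM, with Ly6g at 0.0237 and Elane at 0.0227 FPKM. Ltf (0.328 untreated, 0.299 with LPS) and Retnlg (0.249 and 0 FPKM) went the other way. The part of these markers in the result was not tested.

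Across the 7 members tested, the LPS effect in macrophages was called higher for 6 and lower for none, against 69.9% of the 11335 genes tested that were called in either direction. Csf1r was the member not called. As TPM 3 were called higher (Csf1, Csf3 and Csf3r) and the other 4 lower, and under quantile normalization 3 higher and 2 lower. In osteoclasts 1 of 7 was called, Csf1, against a background of 17.7%. Between untreated cell types 2 members were called higher and 4 lower in osteoclasts, against 77.8% of genes called. With LPS in both, 1 was called higher and 6 lower, against 83.9%. The interaction was called for 6, each with the lower value in osteoclasts, against 56.6%. Without Csf3, the called members were 5, 1, 6, 6 and 5 of 6 in these 5 comparisons. As TPM, 3 members were called with LPS in osteoclasts. For the interaction as TPM, Csf3 (-2.49) was called with the lower value in osteoclasts, and Csf1r (0.56) and Csf2ra (0.15) with the higher one, beside a median of 0.51 over all genes. With 7 genes, nothing particular to the members is read from these counts against the background. The comparisons share groups, so their calls are not independent.

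**Figure D3:**
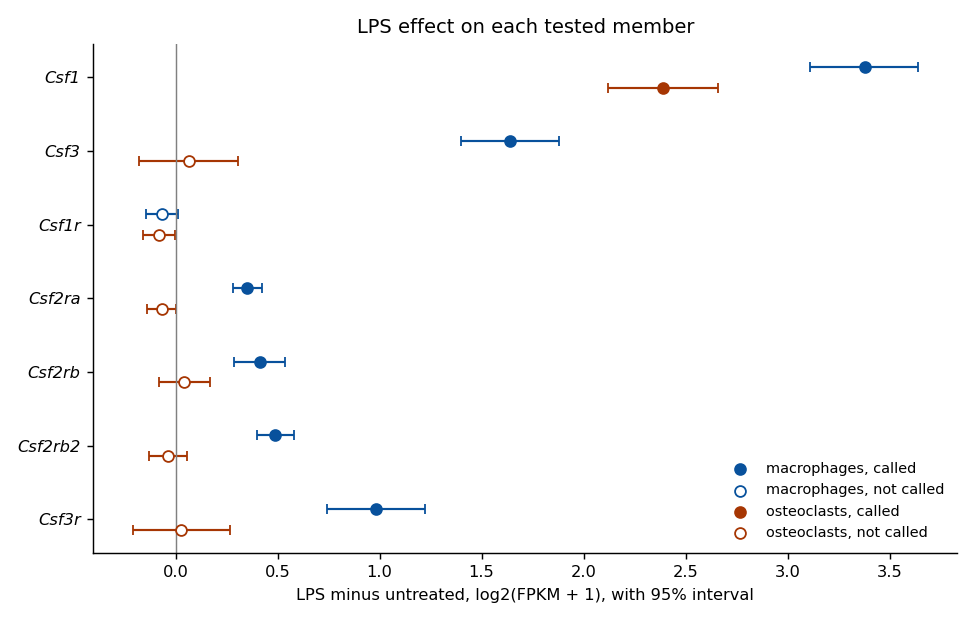
Log2(FPKM + 1) difference with LPS in macrophages and in osteoclasts for the 7 tested members, with 95% intervals; filled points were called and open points were not. In macrophages 6 points are filled, of which those of Csf2ra, Csf2rb and Csf2rb2 change sign as TPM or under quantile normalization, and in osteoclasts only Csf1 is filled.

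**Figure D4:**
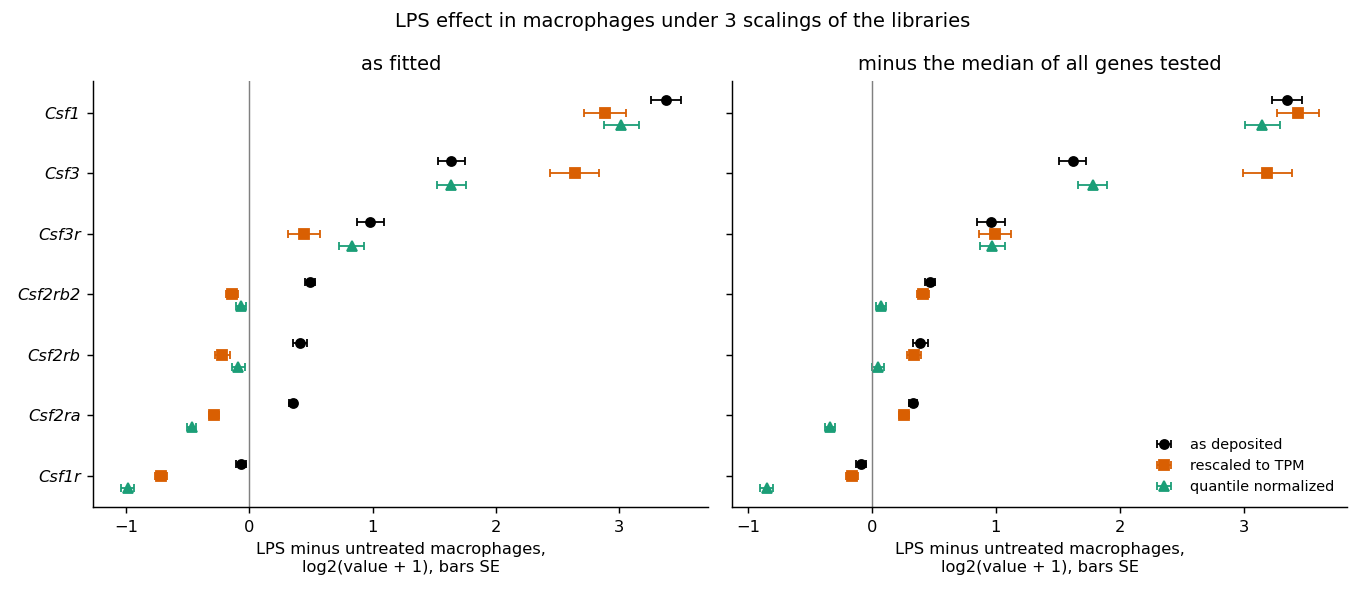
LPS effect in macrophages for each tested member as deposited, as TPM and under quantile normalization, on the log2(value + 1) scale with SE, as fitted and less the median of all genes tested. Csf1, Csf3 and Csf3r are above 0 under the 3 scalings, while Csf2ra, Csf2rb and Csf2rb2 are below 0 as TPM and under quantile normalization before the median is taken off.

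Of the 5 other ligands and receptors that use the same receptors or the shared beta chain, 2 passed the filter. Il34, the second ligand of CSF1R, had the opposite order to Csf1 between the cell types. Its means were 0.0587 FPKM in untreated macrophages, 0.372 with LPS, 1.45 in untreated osteoclasts and 3.25 with LPS. Il34 rose with LPS in osteoclasts by 0.79 (limma adjusted p = 2.36e-04) and was 1.21 higher in untreated osteoclasts than in untreated macrophages (limma adjusted p = 4.18e-07). Il34 passed the filter through the osteoclasts alone, where it was high, so the test between cell types describes those groups. In untreated osteoclasts its mean was above that of Csf1, 1.45 against 0.224 FPKM per length. Il3ra, the alpha chain of the IL-3 receptor, stood at 13.2 FPKM in untreated macrophages and 4.43 in untreated osteoclasts, a log2 difference of -1.39 (limma adjusted p = 2.53e-09). Il3 itself held no read in the 12 libraries, and Il5 and Il5ra had means of 0.0706 FPKM or less.

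Of 19 kinases, adapters and phosphatases downstream of CSF1R, 9 were higher and 4 lower with LPS in macrophages (median log2 difference 0.12, against 0.02 over all genes). In osteoclasts 3 were higher and 2 lower (median 0.01, against 0.01). These 13 and 5 calls of 19 stand beside 69.9% and 17.7% of all genes called. As TPM the counts were 4 higher and 12 lower in macrophages and 1 higher and 3 lower in osteoclasts, and under quantile normalization 7 and 12, and 1 and 4. Src, a kinase needed for bone resorption, stood at 1.23 FPKM in untreated and 46.2 in LPS-treated macrophages (log2 difference 4.40; limma adjusted p = 1.30e-13), and at 109 and 124 FPKM in osteoclasts (0.19; limma adjusted p = 0.0722). Lyn, a Src-family kinase of myeloid cells, rose in macrophages from 63.7 to 120 FPKM. Inpp5d, the lipid phosphatase SHIP1, fell in macrophages from 69.3 to 19.7 FPKM (log2 difference -1.77; limma adjusted p = 6.61e-11). Tyrobp, the adapter DAP12 that works with CSF1R in osteoclast precursors, was read at 792 and 862 FPKM in macrophages and 787 and 880 in osteoclasts and was called in none of the 5 comparisons as deposited, but it was called with LPS in macrophages under quantile normalization.

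Of 14 genes of the JAK-STAT arm of the GM-CSF and G-CSF receptors, with its feedback and target genes, 11 were higher and 3 lower with LPS in macrophages (median 1.58, against 0.02 over all genes, of which 69.9% were called). In osteoclasts 6 were higher and 2 lower (median 0.16, against 0.01 and 17.7% called). As TPM the counts were 10 and 4 in macrophages and 6 and 2 in osteoclasts. Jak2, the kinase bound to the beta chain, rose in macrophages from 9.72 to 171 FPKM (4.00; limma adjusted p = 9.33e-11) and in osteoclasts from 4.11 to 18.5 FPKM (1.90; limma adjusted p = 1.33e-06). Stat5a, the main transcription factor of GM-CSF signalling, rose from 3.27 to 54.8 FPKM in macrophages and from 1.83 to 2.96 FPKM in osteoclasts. Cish, a STAT5 target that feeds back on the receptor, rose from 0.0925 to 22.9 FPKM in macrophages (4.45; limma adjusted p = 6.03e-14) and stood at 0.0327 and 0.125 FPKM in osteoclasts (0.12; limma adjusted p = 0.165). Like Csf3, it passed the filter through LPS-treated macrophages alone, so its tests describe that group. Socs3, the feedback inhibitor that binds the G-CSF receptor, rose from 1.18 to 886 FPKM and from 0.163 to 13.5 FPKM. The interaction was called for Jak2 (-2.10), Stat5a (-3.23), Cish (-4.33) and Socs3 (-5.09), with limma adjusted p of 1.90e-06, 2.66e-10, 1.16e-11 and 1.67e-08. The genes that fell in macrophages were Myc (23.7 to 1.82 FPKM), Ccnd1 (162 to 44.8 FPKM) and Bcl2l1 (46.7 to 33.4 FPKM), which act in growth, the cell cycle and survival.

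Of 7 transcription factors known for the Csf1r gene, 1 was higher and 6 lower in untreated osteoclasts than in untreated macrophages (median -2.44, against 0.00 over all genes, of which 77.8% were called). Spi1, which encodes PU.1, was the higher one, with 129 FPKM in macrophages and 278 in osteoclasts (1.10; limma adjusted p = 1.64e-10). Cebpa fell from 181 FPKM in macrophages to 10.7 in osteoclasts and Irf8 from 22.7 to 1.08 FPKM. With LPS in macrophages 3 of the 7 were higher and 2 lower, beside 69.9% of all genes called. As TPM the counts were 3 and 4.

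Of 6 listed regulators of cytokine message stability, 3 were higher and 3 lower with LPS in macrophages (median 0.24). In osteoclasts 3 were higher and 1 lower (median 0.21). Over all genes the medians were 0.02 and 0.01, with 69.9% and 17.7% called. Not all 6 are decay factors: Elavl1, which encodes the stabilizing protein HuR, was among the 3 higher in macrophages (0.60; limma adjusted p = 7.06e-08). As TPM these counts were 2 and 3 in macrophages and 2 and 1 in osteoclasts. Zfp36, which encodes tristetraprolin, the decay factor known for binding the Csf2 message, rose from 21.6 to 320.3 FPKM in macrophages (3.83; limma adjusted p = 1.30e-13) and from 21.8 to 34.5 FPKM in osteoclasts (0.64; limma adjusted p = 8.70e-06). Zc3h12a, the endonuclease Regnase-1, rose from 8.40 to 109 and from 5.68 to 33.2 FPKM. Zfp36l2, a relative of Zfp36, fell from 116 to 13.5 and from 58.1 to 38.3 FPKM.

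The genes most like each member were named by Pearson's r of log2(FPKM + 1) over the 12 libraries among 5443 genes that varied by at least 1 on that scale. The points share the libraries and their 4 groups, so r describes the group pattern. Csf1 was most like the chemokine genes Ccl2 (r = 0.994) and Ccl7 (r = 0.994) and like Slfn5 (r = 0.993). Ccl2 stood at 68.1, 1826, 7.35 and 61.1 FPKM in the order untreated and LPS-treated macrophages, untreated and LPS-treated osteoclasts. Csf1r was most like Ptpra (r = 0.996), Cnpy3 (r = 0.996) and Tmed8 (r = 0.995), Csf2ra like Wdfy2 (r = 0.989), Mt1 (r = 0.980) and Gm42547 (r = 0.972), and Csf2rb like Mvp (r = 0.980), Arhgap28 (r = 0.977) and Plod3 (r = 0.977). Csf2rb2 was most like Ankfy1 (r = 0.996), Coro2a (r = 0.995) and Creb5 (r = 0.994), Csf3 like Nxpe3 (r = 0.993), Tnfaip6 (r = 0.992) and Vgf (r = 0.992), and Csf3r like Rps6ka3, Exoc4 and Cbfb (r = 0.997 each).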

How the data were processed

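RNA was sequenced in 12 libraries, 3 for each of 4 groups taken from the sample titles and library names. The authors deposited FPKM values for 54532 Ensembl genes, and per the submitters' processing notes, fastp, STAR, featureCounts and DESeq2 were used with build mm10, with no roles given. The annotation and the use of strand are not given in the sources used here. Values were whole multiples of a step per gene: at a tolerance of 0.02 of a read, all of the 25854 genes above 0 gave whole reads, 96.69% of them at the merged exon length of GENCODE M21, which named the genes. Recovered reads per library were 15651755 to 20281431, and replicates differed by more than sampling noise.

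The 11335 genes that reached 1 FPKM in 3 or more libraries were tested on log2(FPKM + 1) with limma 3.58.1 in R 4.3.3, using 1 fit of 4 group means with a variance trend. The 5 contrasts were the LPS effect for either cell type, osteoclasts against macrophages (untreated, then LPS-treated), and the interaction. P-values are two-sided, adjusted by Benjamini-Hochberg over all genes tested, and called below 0.05. On this scale the change of low genes is understated. Floors are 3 reads per library, and counting intervals are exact at 95%; both cover counting error only. Same-numbered libraries were not paired. Of the steps, the limma fit was tested on simulated data, which held no shift of library scaling. All 8 members, genes of the fixed pathway and marker lists and, per member, the 3 genes of highest Pearson's r were to be named. Some genes of the lists are not reported here by name. Members and lists were chosen with earlier results of these data known. Alternatives were other pseudocounts, filters, scalings, fit designs and left-out libraries. Voom on recovered reads and the fit of Csf2 with no filter were added after seeing the data. No value column was left unmapped (0).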

Additional observations from a re-analysis of the deposited data

Results flagged for a closer look

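By the limma interaction test, the response to LPS differed between macrophages and osteoclasts for 6 of the 7 members tested, against 56.6% of all genes tested. On the log2(FPKM + 1) scale, the effect in osteoclasts minus that in macrophages was -0.99 for Csf1, -1.58 for Csf3 and -0.95 for Csf3r. It was -0.42 for Csf2ra, -0.37 for Csf2rb and -0.53 for Csf2rb2. The value of Csf1 changed sign with a smaller pseudocount and in voom, where it was 1.11 and called (limma adjusted p = 0.0496). That of Csf3r was not called as TPM (-0.40, or -0.91 less the median; limma adjusted p = 0.0603) or in voom (-0.92; limma adjusted p = 0.232). Csf1r, not called as deposited, was called as TPM (0.56, or 0.05 less the median) and under quantile normalization (0.77, or 0.69 less the median). As TPM, which moved the median interaction of all genes to 0.51, those of Csf1, Csf2ra, Csf2rb and Csf2rb2 changed sign, while less that median they were -0.11, -0.36, -0.32 and -0.48. Under quantile normalization Csf2ra was 0.30 and called, Csf2rb was 0.07 and Csf2rb2 -0.05, neither of them called (limma adjusted p = 0.455 and 0.525). Csf3 passed the filter through LPS-treated macrophages alone, so its test describes the group that let it in.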

How the results depend on the processing

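Of 44 counts of genes called under other settings, 40 stayed within 1.5 times, as did 41 of 44 counts of members. With a mean of at least 5 FPKM, which tests fewer genes, 4851 genes were called for LPS in macrophages, 5427 between untreated and 5694 between LPS-treated cell types and 4018 for the interaction. Members called for LPS in osteoclasts were 3 as TPM and 3 under quantile normalization, and 3 for the interaction as TPM. Values that changed sign are given next. The TPM values include the shift of the median of all genes, and the cause of the others was not tested. For LPS in macrophages Csf2ra was -0.29, Csf2rb -0.22 and Csf2rb2 -0.14 as TPM, and -0.47, -0.09 and -0.07 under quantile normalization. For LPS in osteoclasts Csf2rb was -0.03 as TPM and -0.02 under quantile normalization, where Csf3r was -0.06. Between untreated cell types Csf2ra was -0.13 as TPM and -0.06 under quantile normalization, and between LPS-treated ones 0.02 and 0.24. The interaction as TPM was 0.40 for Csf1, 0.56 for Csf1r, 0.15 for Csf2ra, 0.19 for Csf2rb and 0.04 for Csf2rb2, and less the median of all genes (0.51) it was -0.11, 0.05, -0.36, -0.32 and -0.48. Under quantile normalization it was 0.77 for Csf1r, 0.30 for Csf2ra and 0.07 for Csf2rb. For Csf1 it was also 0.58 with a pseudocount of 0.1 and 1.11 in voom. Without 1 library, 415 of 420 member values kept direction and call. The others were never called. With LPS in osteoclasts, Csf2rb ranged from -0.01 to 0.08 and Csf3 from -0.02 to 0.10, both lowest without LPS-treated osteoclast replicate 2. Csf3 between untreated cell types ranged from 0.00 (without untreated osteoclast replicate 1) to 0.03. The Csf1r interaction ranged from -0.04 to 0.00 (without LPS-treated macrophage replicate 2 or osteoclast replicate 1). Same-numbered libraries correlated by -0.0702 to 0.104 in their deviations (18 pairs), so the numbers were not taken as a pairing, and with the replicate number as a block 7914 genes and 6 members were called for LPS in macrophages and 1930 genes and 1 member in osteoclasts. The block changed no call of a member. Csf2 and Csf3 are limited by depth.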

Other observations

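The release of CSF1R and of membrane-bound M-CSF from the cell surface is known to use metalloproteases, and 4 genes of that system were listed. With LPS in macrophages 3 were higher and 1 lower, and in osteoclasts 2 were higher and none lower, beside 69.9% and 17.7% of all genes called (1 lower as TPM and under quantile normalization). Adam17, the main sheddase of CSF1R, stood at 39.2 FPKM in untreated and 89.4 FPKM in LPS-treated macrophages (1.17; limma adjusted p = 3.12e-08), and at 12.2 and 15.8 FPKM in osteoclasts (0.35; limma adjusted p = 0.00666). Rhbdf2, which encodes iRhom2, the partner that brings ADAM17 to the surface, rose from 19.9 to 83.2 FPKM in macrophages (2.01; limma adjusted p = 9.17e-12) and from 7.89 to 11.8 FPKM in osteoclasts (0.53; limma adjusted p = 2.13e-05). Timp3, an inhibitor of ADAM17 and not a sheddase, rose from 1.53 to 4.24 FPKM in macrophages (1.05; limma adjusted p = 2.51e-07). All 4 genes were lower in untreated osteoclasts than in untreated macrophages, with a median log2 difference of -1.36 against 0.00 over all genes, of which 77.8% were called. Timp3 passed the filter through the macrophages alone.

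GM-CSF is also known for the growth of dendritic cells in marrow culture. The 5 dendritic cell markers summed to 0.259 to 0.280 FPKM in untreated and 5.62 to 6.29 FPKM in LPS-treated macrophages, where Xcr1 made up 5.31 FPKM, and to 0.611 to 0.692 FPKM in untreated and 1.34 to 1.84 FPKM in LPS-treated osteoclasts. Markers of T, B and NK cells, which are sources of GM-CSF, summed to 0.172 FPKM or less in every library, and those of mast cells and basophils to 0.379 FPKM or less.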
